A study of Mus musculus with 4 samples.

Results

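The sialidase genes *Neu1*, *Neu2* and *Neu3* were followed through muscle stem cells (MuSCs) sorted from mouse hindlimb muscle. They are 3 of the 32285 genes counted, and were chosen by their levels in earlier work on these libraries, in which *Neu1* led quiescent-like cells and *Neu2* led activated-like cells. The levels of *Neu1* and *Neu2* across cell states are therefore a description and carry no test, whereas the comparisons of genotypes were not used in the choice and are tested. The fourth family member, *Neu4*, had 4 UMIs in all kept cells and is not described further.

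Sialidases remove sialic acids, the acidic sugars that cap the glycan chains of many glycoproteins and glycolipids, and sialyltransferases add them. *Neu1* encodes the lysosomal sialidase, which is active in a complex with the protective protein cathepsin A (*Ctsa*). *Neu2* encodes a cytosolic sialidase known from skeletal muscle and from myoblasts in culture, and *Neu3* encodes a sialidase of the plasma membrane that acts mainly on gangliosides.

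Single cell RNA-sequencing was performed on tdTomato+ cells of 2 control and 2 α-cdKO samples, each pooled from 2 littermate C57BL/6J mice aged 3 to 4 months and taken 14 days after tamoxifen. α-cdKO mice had floxed alleles of both α-catenin genes (*Ctnna1*fl/fl and *Ctnna3*fl/fl), which Cre made in *Pax7*-expressing cells deletes, together with *Pax7*CreERT2/+ and *Rosa26*-tdTomato+. Control mice carried the latter pair of alleles and also received tamoxifen, so both genotypes carried the inducible Cre, the reporter and the drug. Replicate samples are separate pools of mice, and p-values measure the spread between these pools.

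Of 5853 to 10649 barcodes per library, 5354 to 9786 were kept, 28790 in all, and libraries held 46099310 to 74921651 unique molecular identifiers (UMIs, each marking 1 captured RNA molecule near the 3′ end). Pairs of libraries shared 9 to 26 barcodes, at most 0.383% of the smaller library. The targeted *Ctnna1* did not separate the genotypes in activated-like cells, at 93.3 and 80.8 normalized CPM (UMIs scaled to a total of 1000000) in controls and 81.3 and 77.9 in α-cdKO (edgeR's quasi-likelihood test, Benjamini-Hochberg adjusted p = 0.839), so these counts do not show the deletion. *Ctnna3* had 12 UMIs in all myogenic cells.

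The 6 myogenic clusters held 27167 cells. A cluster of 4675 cells was quiescent-like, with 6 of 9 quiescence markers raised at least 1.5-fold over other myogenic cells and *Fos*, *Jun*, *Hes1* and *Neu1* itself among its 10 leading genes. The activated-like class joined 12205 cells led by the chemokines *Cxcl3*, *Cxcl2* and *Cxcl5*, with *Neu2* also among the 10 leading genes, and 8908 cells led by chaperone genes. These clusters had only 5 and 3 of 11 activation markers raised, and no activation marker was among the leading genes of the former. Cycling-like (637 cells), differentiated-like (462) and mature-muscle-like (280) cells formed the rest, and the immune genes *S100a8* and *S100a9* were among the leading genes of the cycling-like cluster.

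The 3 genes lie on different chromosomes (coordinates in GRCm38 with the GENCODE vM21 annotation). *Neu1* (ENSMUSG00000007038) spans chr17:34931253-34935953 on the plus strand, 817 bases beyond *Slc44a4* and 20483 and 33237 bases before the heat-shock genes *Hspa1b* and *Hspa1a*. *Neu2* (ENSMUSG00000079434) spans chr1:87509889-87597845 on the plus strand, where 7 coding transcripts have 5 annotated starts. Its long 5′ part overlaps the opposite-strand gene *Ngef* and the pseudogenes *Gm17181* and *Gm6153*, and counts near the 3′ end do not tell which start was used. *Ngef* was at 0.607 ± 0.191 CPM (SD, n = 4) in myogenic cells, far under the level of *Neu2*. *Neu3* (ENSMUSG00000035239) spans chr7:99811439-99828417 on the minus strand, between *Olfr521* and *Spcs2*.

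The 250 bases before the start of *Neu1* and before the 2 RefSeq starts of *Neu2* whose windows held a motif are shown because these 2 genes had opposite levels in the 2 states (RefSeq, GRCm38.p6, plus strand, 5′ to 3′). Capitals mark every match on either strand to CANNTG (the E-box that myogenic bHLH factors bind), TGANTCA (the AP-1 motif that Fos and Jun bind) and TATAAA (the core element that TBP binds).
*Neu1*, chr17:34931003-34931252: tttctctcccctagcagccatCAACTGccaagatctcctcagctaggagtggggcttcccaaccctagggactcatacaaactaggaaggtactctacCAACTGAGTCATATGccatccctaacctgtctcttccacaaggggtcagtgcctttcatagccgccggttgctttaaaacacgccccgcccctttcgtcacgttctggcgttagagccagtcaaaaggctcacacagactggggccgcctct
*Neu2*, chr1:87583772-87584021: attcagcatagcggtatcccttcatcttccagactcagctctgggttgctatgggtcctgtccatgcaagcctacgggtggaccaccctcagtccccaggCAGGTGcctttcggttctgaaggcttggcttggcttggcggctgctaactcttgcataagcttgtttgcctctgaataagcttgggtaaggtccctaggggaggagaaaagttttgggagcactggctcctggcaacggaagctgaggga
*Neu2*, chr1:87594300-87594549: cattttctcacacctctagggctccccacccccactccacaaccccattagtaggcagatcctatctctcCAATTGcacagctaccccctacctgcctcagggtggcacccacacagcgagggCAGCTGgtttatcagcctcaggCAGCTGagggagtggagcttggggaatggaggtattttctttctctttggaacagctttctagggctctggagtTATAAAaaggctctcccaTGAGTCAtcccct

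The *Neu1* window held 3 E-boxes, 229, 152 and 143 bases before the start, and 1 AP-1 match at 148 that overlaps the latter E-boxes. The *Neu2* window nearest its 3′ end held 3 E-boxes at 180, 127 and 105 bases before the start, of which 2 were CAGCTG, with a TATAAA at 31 and an AP-1 match at 13. The other *Neu2* window shown held 1 E-box at 150. Another *Neu2* window, not printed (chr1:87573777-87574026), held none of these motifs, and neither did the *Neu3* window (chr7:99828418-99828667, minus strand). Of 32817 such windows in the genome, 66.2% held an E-box, 12.2% held at least 3, 1.26% held at least 2 CAGCTG, 6.75% held the AP-1 motif and 12.4% held TATAAA. A match is a stretch of letters in a window and not a measured binding site.

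*Neu1* RNA was concentrated in quiescent-like cells of every library. UMIs summed over quiescent-like cells gave 58.1 CPM in control replicate 1, 78.0 in control replicate 2, 59.4 in α-cdKO replicate 1 and 60.2 in α-cdKO replicate 2, a mean of 63.9 ± 9.41 (SD, n = 4). Activated-like cells had 10.8 and 7.89 CPM in the controls and 7.45 and 11.2 in α-cdKO, a mean of 9.32 ± 1.92. All 4 quiescent-like values lay above all 4 activated-like values, and within a library the quiescent-like level was 5.39 to 9.88 times the activated-like level. Quiescent-like cells held 50.25% of all *Neu1* UMIs of myogenic cells (42.5% to 65.3% by library), with 17.2% of the cells and 12.96% of all UMIs.

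*Neu2* RNA had the opposite arrangement. Activated-like cells had 89.3 CPM in control replicate 1, 119 in control replicate 2, 48.2 in α-cdKO replicate 1 and 122 in α-cdKO replicate 2, a mean of 94.7 ± 34.4 (SD, n = 4). Quiescent-like cells had 10.9 and 4.61 CPM in the controls and 3.03 and 12.4 in α-cdKO, a mean of 7.74 ± 4.61. The states did not overlap, and the activated-like level was 8.22 to 25.9 times the quiescent-like level of the same library. The mean log2 ratio was 3.75 ± 0.74, and 2.89 when cells were clustered at a finer resolution, whose classes differ in membership. Activated-like cells held 97.2% of the *Neu2* UMIs (96.4% to 98.5% by library), with 78.9% of all UMIs.

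Both genes stood near the ends of the distribution over all genes. Of 8003 genes with at least 5 CPM, 442 (5.52%) were at least 2-fold higher in activated-like cells of every library and 208 (2.60%) at least 2-fold lower, on the log2(CPM + 5) scale. *Neu2* was the 10th from the top on this scale at 2.96 ± 0.50 and *Neu1* was the 12th from the bottom at −2.27 ± 0.33 (mean ± SD, n = 4).

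The activated-like clusters were not alike. In the order control replicate 1, control replicate 2, α-cdKO replicate 1 and α-cdKO replicate 2, the chemokine-led cells had 115, 164, 64.2 and 159 CPM of *Neu2*, and the chaperone-led cells 56.8, 66.5, 30.1 and 87.4. *Neu2* was therefore 1.82 to 2.47 times higher in the chemokine-led cells of every library. *Neu1* went the other way in the same cells, at 7.44, 4.59, 4.71 and 7.68 CPM in the chemokine-led and 14.9, 11.8, 10.5 and 14.4 in the chaperone-led cells, 1.88 to 2.56 times lower. Both genes were among the variable genes that formed the clusters. Clustered without these and the other sialic acid genes, the log2 ratio of activated-like to quiescent-like was −2.83 ± 0.43 for *Neu1* (−2.79 ± 0.43 with them) and 3.78 ± 0.81 for *Neu2*.

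**Figure D1:**
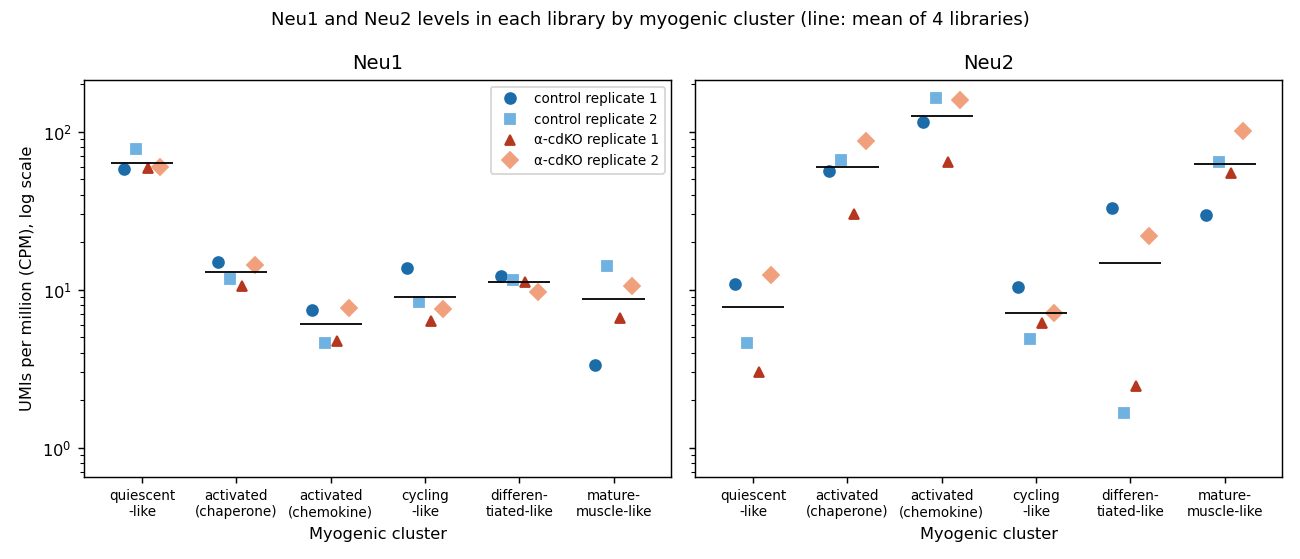
Levels of *Neu1* (left) and *Neu2* (right) in CPM on a log axis, by myogenic cluster, with 1 point per library and a line at the mean of the 4 libraries. *Neu1* was highest in quiescent-like cells (mean 63.9) in every library, and *Neu2* was highest in the chemokine-led activated-like cells (mean 126).

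The cycling-like, differentiated-like and mature-muscle-like clusters had neither gene at its peak. The mature-muscle-like cluster raised 0 of 6 differentiation markers and is not placed as a later stage. It had *Myod1* at 588 ± 150 CPM (SD, n = 4), beside 445 ± 96.7 in chaperone-led cells. Its 102 cells from control replicate 2 had a median of 1289 UMIs. In order of mean level, *Neu1* was at 63.9 CPM in quiescent-like, 12.9 in chaperone-led, 11.2 in differentiated-like, 9.01 in cycling-like, 8.69 in mature-muscle-like and 6.10 in chemokine-led cells. Only the first step of this order was kept by all 4 libraries, so the neighbors below quiescent-like cells were not separated beyond the spread between libraries. For *Neu2* the order was 126 CPM in chemokine-led, 62.7 in mature-muscle-like, 60.2 in chaperone-led, 14.7 in differentiated-like, 7.74 in quiescent-like and 7.12 in cycling-like cells. All 4 libraries kept chemokine-led above mature-muscle-like and chaperone-led above differentiated-like cells, and the other neighbors changed places between libraries. In differentiated-like cells *Neu2* ran from 1.65 CPM in control replicate 2, which rests on 2 UMIs, to 32.7 in control replicate 1.

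Outside the myogenic cells, *Neu1* was at 49.5 ± 15.2 CPM in endothelial-like cells (179 cells; SD, n = 4) and 53.6 ± 23.4 in a small immune-like cluster (134 cells) that also raised glial and fibro-adipogenic markers. *Neu2* was at 49.4 ± 34.6 and 1.57 ± 3.14 CPM in the same clusters. The largest cluster outside the myogenic cells was mature-muscle-like (1310 cells), with *Neu1* at 9.37 ± 9.59 and *Neu2* at 33.5 ± 23.1 CPM. *Neu1* in quiescent-like cells thus stood near the level of the endothelial-like and immune-like clusters, with overlapping values, and above all 4 values of the mature-muscle-like cluster. In activated-like cells *Neu1* was below all 4 endothelial-like values.

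*Neu3* was near the limit of detection. Its 83 UMIs in myogenic cells gave 0.429 and 0.341 CPM in the controls and 0.315 and 0.369 in α-cdKO, under the level of *Neu1* and *Neu2* in each library. Quiescent-like cells had 0.670 ± 0.155 CPM from 20 UMIs and activated-like cells 0.308 ± 0.0815 from 56 UMIs (SD, n = 4). All 4 quiescent-like values (0.535 to 0.893 CPM, from 3 to 6 UMIs per library) lay above all 4 activated-like values (0.229 to 0.406 CPM). Within every library the counting intervals of the 2 states overlapped, so no single library separated them.

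To place the 2 genes along a marker score, the myogenic cells of each library were ordered by their activation marker level minus their quiescence marker level. These lists hold no sialidase, and the cells were divided into 10 bins of equal size. The bins mix the classes. Quiescent-like cells made up 74.7% to 95.6% of the first bin by library, 32.6% to 60.4% of bin 2 and 17.3% to 22.6% of bin 3. Intermediate levels can thus come from mixed classes, and a graded change within a class was not tested. *Neu1* stood at 91.4 ± 25.6 CPM in the first bin, 27.4 ± 5.48 in bin 2 and 14.1 ± 3.51 in bin 3 (SD, n = 4). From bin 4 on it lay between 7.18 and 9.54 in the mean. *Neu2* stood at 13.1 ± 9.97, 40.3 ± 20.2 and 59.5 ± 22.6 CPM in the first 3 bins and at 75.8 to 110 in the mean afterwards.

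*Neu2* UMIs as a share of *Neu1* and *Neu2* UMIs together were 3.19% to 26.3% by library in the first bin, 40.3% to 68.2% in bin 2 and 74.6% to 82.3% in bin 3. From bin 4 on, *Neu2* made up 81.3% to 96.6% in every library. The change of the leading sialidase thus lay between the first and the third bin in all 4 libraries. A UMI is counted once per captured molecule near the 3′ end, so these levels are not divided by gene length.

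**Figure D2:**
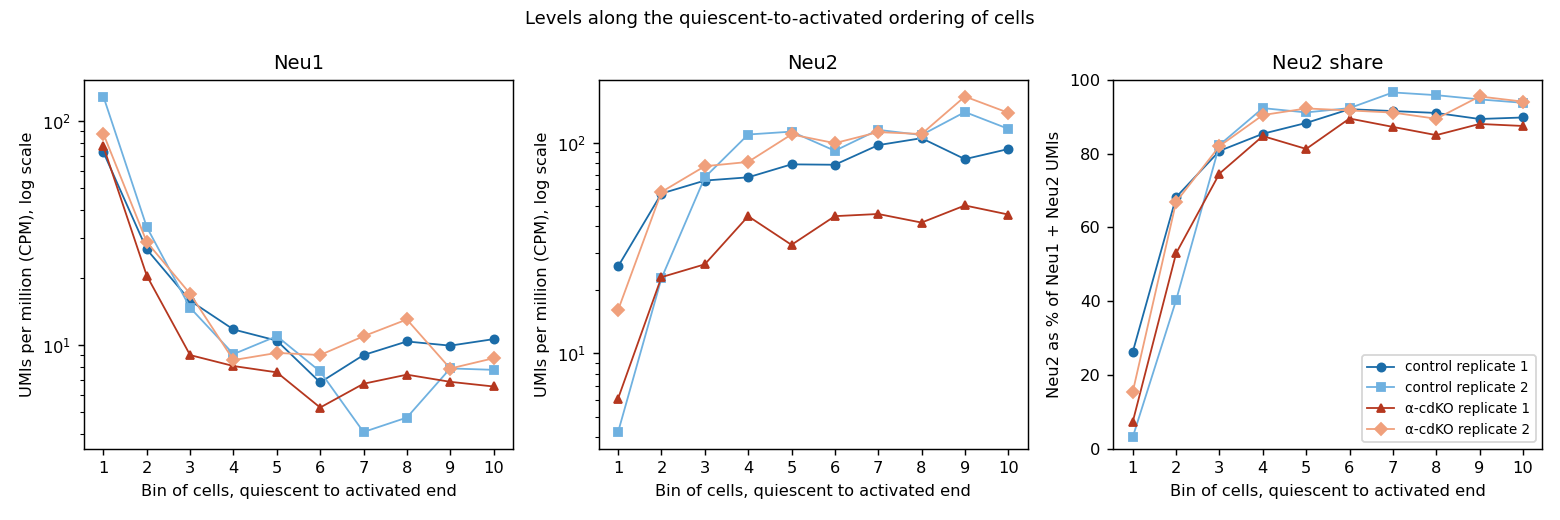
Levels of *Neu1* and *Neu2* in CPM on log axes, and *Neu2* as a percentage of the UMIs of both genes, in 10 bins of the myogenic cells of each library ordered from the quiescent to the activated end of the marker score. *Neu1* is highest in the first bin of each library, and the *Neu2* share is 3.19% to 26.3% in the first bin and at least 74.6% in the third.

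Single cells were compared at equal depth, with each cell thinned to 2000 UMIs and 380 shallower myogenic cells left out, 136 quiescent-like and 137 activated-like cells among them. A *Neu1* UMI was then found in 8.72% of 4539 quiescent-like cells (exact 95% binomial interval 7.92 to 9.58) and in 1.73% of 20976 activated-like cells (1.56 to 1.92). A *Neu2* UMI was found in 1.15% (0.857 to 1.5) and 10.6% (10.1 to 10.98). Median depth before thinning was 5968 UMIs in quiescent-like and 7656 in activated-like cells, and intervals cover counting error only.

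Free RNA in droplets also gives UMIs to cells that do not express a gene. Endothelial-like cells had a *Neu2* UMI in 4.14% of 169 cells (7 cells; 1.68 to 8.35; median depth 7936), and the immune-like cluster in 0 of 125 cells, a count that allows at most 2.40%. Of these 7 endothelial-like cells 5 came from α-cdKO replicate 2, and each other library gave 0 or 1. The *Neu2* share of quiescent-like cells was under the endothelial-like share and within the limit of the immune-like cluster, so a share of this size cannot be told apart from free RNA. By level, quiescent-like cells had 7.90 CPM of *Neu2* (summed over libraries; exact 95% counting interval 6.92 to 8.97), above the 1.56 CPM of the immune-like cluster (0.189 to 5.63, from 2 UMIs) and under the 45.5 CPM of endothelial-like cells (35.6 to 57.2). The part of free RNA in the quiescent-like level was not tested. *Neu1* serves the lysosomes of most cell types, so no class was taken to lack it.

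Cells that held several molecules showed the same arrangement. Of quiescent-like cells at equal depth, 270 had 1 *Neu1* UMI, 65 had 2 and 61 had at least 3, up to 12 in 1 cell, and in activated-like cells 346 had 1, 16 had 2 and 1 had 3. For *Neu2*, 1383 activated-like cells had 1 UMI, 450 had 2 and 381 had at least 3, up to 24, whereas 45 quiescent-like cells had 1, 4 had 2 and 3 had at least 3. *Neu2* molecules were therefore spread unevenly over activated-like cells, with most cells at 0 at this depth.

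*Neu1* and *Neu2* were seldom found in the same cell. Of 26787 myogenic cells at equal depth, 741 had *Neu1* only, 2261 had *Neu2* only, 38 had both and 23747 had neither. Independent detection within each library would have put both in 68.0 cells, summed over the 4 libraries. The observed number was 0.639 and 0.50 times this expectation in the control libraries and 0.635 and 0.512 times in α-cdKO, a mean of 0.571 ± 0.0757 (SD, n = 4). All 4 libraries lay under 1. The genes were chosen for leading different states, so a deficit over cells of mixed states was built in. It is a description and no separate evidence that the genes exclude each other.

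Within activated-like cells, the deficit was not seen. There, 36 cells had both genes against 39.1 expected, with ratios of 0.860 and 1.19 for the control and 1.08 and 0.792 for the α-cdKO libraries, a mean of 0.982 ± 0.187 (SD, n = 4). The libraries fell on both sides of 1, in each genotype. In quiescent-like cells 2 cells had both against 4.39 expected, too few to compare. At 4000 UMIs per cell the mean ratio was 0.638 ± 0.111 in all myogenic and 0.931 ± 0.0866 in activated-like cells.

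Cells with both genes were deeper before thinning (median 8568 UMIs, against 6430 for *Neu1* only and 7862 for *Neu2* only), and 21.1% of them were among the cells with the highest doublet scores, which made up 6.10% of all myogenic cells. With those cells removed the ratio in myogenic cells was 0.469. The part of barcodes that hold 2 cells in the remainder was not tested. Of the *Neu1*-only cells 53.2% were quiescent-like, and of the *Neu2*-only cells 96.3% were activated-like.

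**Figure D3:**
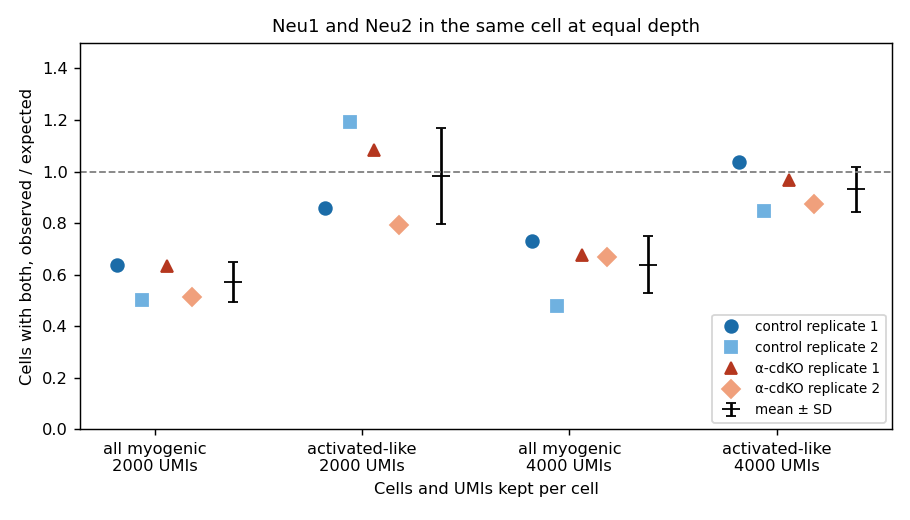
Number of cells with both *Neu1* and *Neu2* UMIs divided by the number expected from independent detection, per library, in all myogenic and in activated-like cells thinned to 2000 or 4000 UMIs, with the mean ± SD of the 4 libraries and a dashed line at 1. All libraries lie under 1 for all myogenic cells (mean 0.571 at 2000 UMIs), and they lie around 1 within activated-like cells (mean 0.982).

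The states were also divided by whether a cell held a UMI of another gene, at the same depth. Among quiescent-like cells, *Neu1* was found in 7.13% of cells with and 13.3% of cells without *Fos*, an immediate-early gene (means of 4 libraries). It was lower with *Fos* in each library, at 7.04% against 12.9%, 9.08% against 16.1%, 6.71% against 11.4% and 5.68% against 12.7%. *Neu1* was also lower in all 4 libraries in quiescent-like cells with *Myc* (5.05% against 9.47%), the chemokine gene *Cxcl1* (5.92% against 10.3%) and the chaperone genes *Hspa1a* (8.10% against 13.3%) and *Hspe1* (7.51% against 12.95%). It was higher in all 4 with the myogenic factor *Myf5* (11.1% against 7.72%), and libraries disagreed for *Pax7*, *Hes1* and *Myod1*.

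In activated-like cells the same divisions ran differently. This class joins chemokine-led cells, with *Dio2* among their leading genes, and chaperone-led cells, with *Hspe1* among theirs. Both sialidases differed between these clusters. The divisions were not made within each cluster, so they cannot be told apart from the difference between the clusters. *Neu1* was higher in all 4 libraries in cells with *Fos* (2.58% against 1.52%), *Hspa1a* (2.75% against 1.19%), *Hes1* (2.63% against 1.61%), the muscle creatine kinase gene *Ckm* (2.47% against 1.65%) and *Hspe1* (1.79% against 1.49%). The smallest ratio by library was only 1.09 for *Ckm* and 1.03 for *Hspe1*. Many such divisions were looked at in both states, and none was tested. *Neu2* was lower in all 4 with *Pax7* (7.83% against 11.4%), *Fos* (8.63% against 11.5%), *Hspe1* (10.1% against 13.1%) and *Hspa1a* (8.51% against 12.3%). It was higher in all 4 with *Cxcl1* (12.8% against 8.70%) and with the deiodinase *Dio2* (15.3% against 10.8%, with a smallest ratio of 1.07). Libraries disagreed for *Myod1*, *Myf5*, *Myc*, *Hes1* and *Ckm*. In quiescent-like cells *Neu2* rests on 52 cells, 6 of them in control replicate 2 and 8 in α-cdKO replicate 1. There it was higher with *Cxcl1* in all 4 libraries (2.25% against 0.673%), and lower in all 4 with *Hes1* (0.707% against 1.59%) and *Myf5* (0.891% against 1.34%). These counts are too few to read a pattern from, and *Neu2* in this class cannot be told apart from free RNA by its share.

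Other genes of sialic acid metabolism were examined for the same arrangement. Of 20 sialyltransferases 5 were measured and 0 passed the 2-fold rule in either direction. Of 10 genes of sialic acid synthesis, transport and breakdown 5 were measured and 0 passed. Over all genes measured 5.52% were higher and 2.60% lower, so 0 of 5 does not set these lists apart. The 5 CPM added before the logarithm shrinks the differences of low genes. *Nagk*, of the latter list, was at 8.75 CPM in quiescent-like and 3.00 in activated-like cells, yet had a log2 difference of −0.78 on this scale. *St3gal5*, the synthase of the ganglioside GM3, was at 61.2 CPM in quiescent-like and 48.1 in activated-like cells, and *St3gal2* at 30.1 and 21.0. *St3gal1*, which sialylates O-glycans, had a log2 difference of 0.96 ± 0.28 and crossed 2-fold in some libraries only. *Slc35a1*, the Golgi CMP-sialic acid transporter, had a mean of 16.9 CPM in quiescent-like and 8.75 in activated-like cells.

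Of 12 ganglioside and glycosphingolipid enzymes, 8 were measured, 2 were higher in activated-like cells by the rule (5.52% over all genes measured) and 0 were lower (2.60%). These were *Ugcg*, which makes glucosylceramide, at 47.0 and 165 CPM, and *B4galt5*, which makes lactosylceramide from it, at 4.28 and 20.1 CPM. The list's median log2 difference was −0.36, beside −0.05 over all genes measured. In the mean of the 4 libraries 3 of the 8 were higher in activated-like cells and the rest were lower.

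Other lysosome genes did not share the size of the *Neu1* difference. Of 17 lysosome genes and their factors 13 were measured, *Neu1*, which was chosen for this difference, was the only 1 lower by the rule (2.60% over all genes measured) and 0 were higher (5.52%), with a median of −0.43. *Ctsa*, the partner of *Neu1*, was at 17.0 and 9.05 CPM in quiescent-like and activated-like cells, a log2 difference of −0.65 ± 0.19 beside −2.27 for *Neu1*. The abundant *Ctsl* (387 and 552 CPM) and *Lamp2* (157 and 221 CPM) had differences of 0.51 ± 0.01 and 0.48 ± 0.05 towards activated-like cells.

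**Figure D4:**
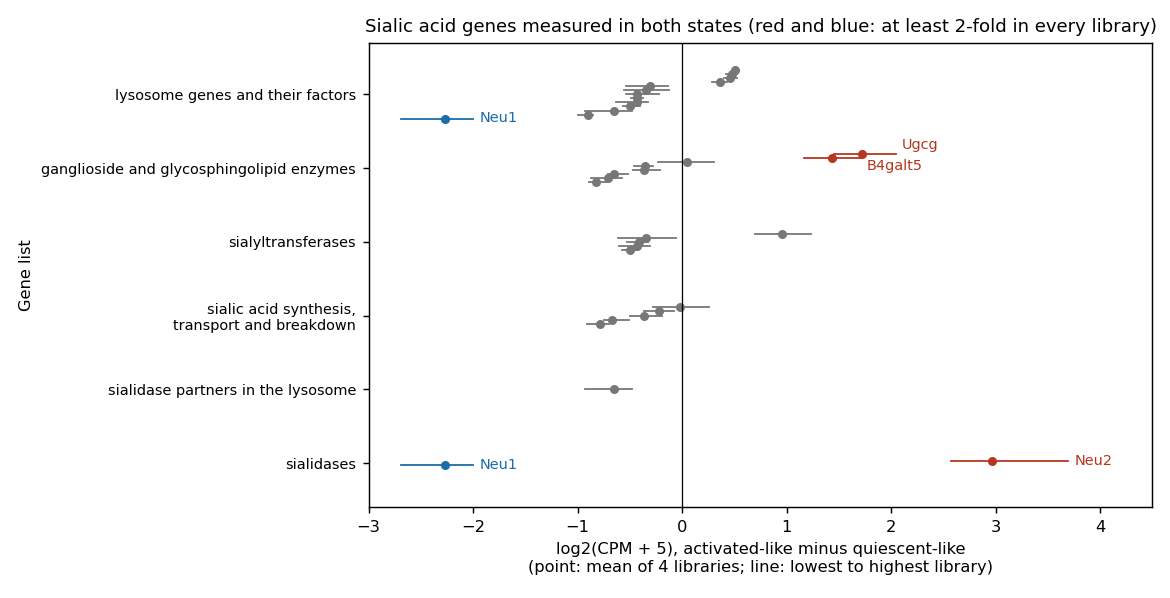
Difference of log2(CPM + 5) between activated-like and quiescent-like cells for the genes of each sialic acid list that reached 5 CPM, with the mean of the 4 libraries as a point and the lowest to highest library as a line. *Neu2* (2.96), *Ugcg* (1.72) and *B4galt5* (1.43) are at least 2-fold higher in activated-like cells of every library, and *Neu1* (−2.27), which is in 2 of the lists, is at least 2-fold lower.

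The 3 genes near *Neu1* were, like it, higher in quiescent-like than in activated-like cells, with no overlap between the 4 values of each state. *Slc44a4*, just before *Neu1*, was at 2.28 CPM in quiescent-like (68 UMIs) and 0.042 in activated-like cells (7 UMIs), and *Hspa1b* and *Hspa1a* beyond it were at 14276 and 15831 CPM against 2802 and 2357. The quiescent-like to activated-like ratio of *Hspa1a* was 6.18 to 8.27 by library, beside 5.39 to 9.88 for *Neu1*. Chemokine-led cells had 46.6 to 85.6 times less *Hspa1a* than chaperone-led cells, where *Neu1* differed 1.88 to 2.56 times. Near *Neu2*, *Inpp5d* was at 0.114 CPM in myogenic cells, and *Spcs2* near *Neu3* was at 80.7 CPM in quiescent-like and 127 in activated-like cells.

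The genes with the most similar pattern over 24 sums, 1 per library and myogenic cluster, were drawn from 6469 genes by Pearson's r of log2(CPM + 5). For *Neu1* they were *Lsmem1* (r = 0.88), *Bcap29* (0.85), *Bmyc* (0.85), the immediate-early gene *Egr1* (0.85) and *Abcc5* (0.84). For *Neu2* they were *Mpp7* (0.93), the interferon-induced exonuclease gene *Isg20* (0.93), *Srsf5* (0.93), *Arpc3* (0.92) and the polyamine acetyltransferase gene *Sat1* (0.91). *Neu1* against *Neu2* gave −0.43, and sums of 1 library share its depth and its mice. *Neu3* counts were too low for such a ranking to be read.

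Whether α-catenin loss changed the sialidases was asked in summed UMIs, 2 control against 2 α-cdKO samples. None of the 3 genes passed the test between genotypes in any class fitted. In myogenic cells the log2 fold change of α-cdKO over control was −0.22 for *Neu1* (standard error 0.19, adjusted p = 0.789), −0.29 for *Neu2* (0.43, adjusted p = 0.881) and −0.18 for *Neu3* (0.38, adjusted p = 0.928) (edgeR, quasi-likelihood, p adjusted over all genes tested). Over all genes, 26 of 14638 (0.178%) passed an adjusted p of 0.05 there.

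In quiescent-like cells, the same edgeR test gave −0.16 for *Neu1* (0.18, adjusted p = 0.846) and 0.11 for *Neu2* (0.58, adjusted p = 0.971), and *Neu3* was too low to be tested. In activated-like cells the values were 0.01 for *Neu1* (0.24, adjusted p = 0.990), −0.28 for *Neu2* (0.37, adjusted p = 0.877) and −0.21 for *Neu3* (0.47, adjusted p = 0.941). The shares of all genes called were 0.0860% in quiescent-like (10 of 11622) and 0.236% in activated-like cells (32 of 13582). For *Neu2*, α-cdKO replicate 1 had the lowest and α-cdKO replicate 2 the highest level of the 4 libraries in both classes.

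The *Neu2* estimate moved with single libraries. In activated-like cells it was −1.10 without α-cdKO replicate 2 (adjusted p = 0.112) and 0.25 without α-cdKO replicate 1 (adjusted p = 1.00), and in all myogenic cells −1.22 (adjusted p = 0.0901) and 0.27 (adjusted p = 1.00), by edgeR. A lone sample in a group is assumed to vary like the other genotype.

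The change between states was compared between genotypes with an interaction term. The difference of the activated-like to quiescent-like log2 ratio, α-cdKO minus control, was 0.14 for *Neu1* (standard error 0.24), −0.31 for *Neu2* (0.37) and −0.01 for *Neu3* (0.73), each with an adjusted p of 1 by edgeR, where 2 of 13968 genes (0.0143%) were called. Without control replicate 1 the *Neu2* interaction was −1.25 with an adjusted p of 0.00262, and without control replicate 2 it was 0.42 (adjusted p = 0.636), so the call and the direction depended on which control was kept.

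The share of *Neu2* among *Neu1* and *Neu2* UMIs was 82.5% (control replicate 1), 82.6% (control replicate 2), 73.7% (α-cdKO replicate 1) and 85.3% (α-cdKO replicate 2) in myogenic cells. In quiescent-like cells it was 15.8%, 5.59%, 4.86% and 17.1% in the same order, and in activated-like cells 89.3%, 93.8%, 86.6% and 91.6%. The genotypes overlapped in all 3, with differences of −3.07, 0.31 and −2.41 percentage points (two-sided exact permutation test, p = 1, 1 and 0.667, where 2 against 2 samples allow no p under 0.333). No gene of the sialic acid lists passed the edgeR test in any of the 4 fits, and the lowest adjusted p in a list was 0.376, for *Ugcg* in quiescent-like cells (log2 fold change 0.56).

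α-cdKO replicate 1, the library with the least *Neu2*, was also the only 1 that held both cells with *Xist* and cells with Y-linked RNA, so it pools mice of both sexes. This division was looked at after the levels were known and has no replicate. At equal depth, a *Neu2* UMI was found in 4.04% of its 3464 activated-like cells with *Xist* but no Y-linked RNA (exact 95% interval 3.41 to 4.75) and in 9.49% of its 1655 activated-like cells with Y-linked RNA but no *Xist* (8.12 to 11). The Y-linked cells of the other libraries had 12.3% (control replicate 1), 12.9% (control replicate 2) and 13.9% (α-cdKO replicate 2). A further 76 of its activated-like cells held both kinds of RNA and had 9.21% (3.78 to 18.1). The interval of the *Xist* cells lay under all of the Y-linked shares. The Y-linked interval of the same library (8.12 to 11) lay in turn under the Y-linked shares of the other libraries.

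*Neu2* was at 30.9 CPM in the *Xist* cells and 72.7 in the Y-linked cells of α-cdKO replicate 1, 2.36 times more, whereas *Neu1* was at 7.92 and 6.99. Of 7238 genes measured in these cells, 24 (0.332%) were at least 2-fold lower in the *Xist* cells on the log2(CPM + 5) scale, and *Neu2* was the 20th from the lowest. The chemokine-led cells had 43.4 and 85.1 and the chaperone-led cells 19.9 and 48.6 CPM of *Neu2* in the *Xist* and Y-linked cells. The activated-like Y-linked cells of the other libraries had more *Neu2*. They were at 95.4 CPM in control replicate 1, 121 in control replicate 2 and 132 in α-cdKO replicate 2. Which mouse a cell came from is not in the labels, so sex and mouse cannot be told apart here. The genotype comparison was also limited to cells with Y-linked RNA but no *Xist* at full depth rather than after thinning, chosen after seeing the data. There the log2 fold change of *Neu2* was −0.08 in activated-like cells (standard error 0.23, edgeR adjusted p = 0.996) and −0.03 in all myogenic cells (0.21, adjusted p = 1.00).

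**Figure D5:**
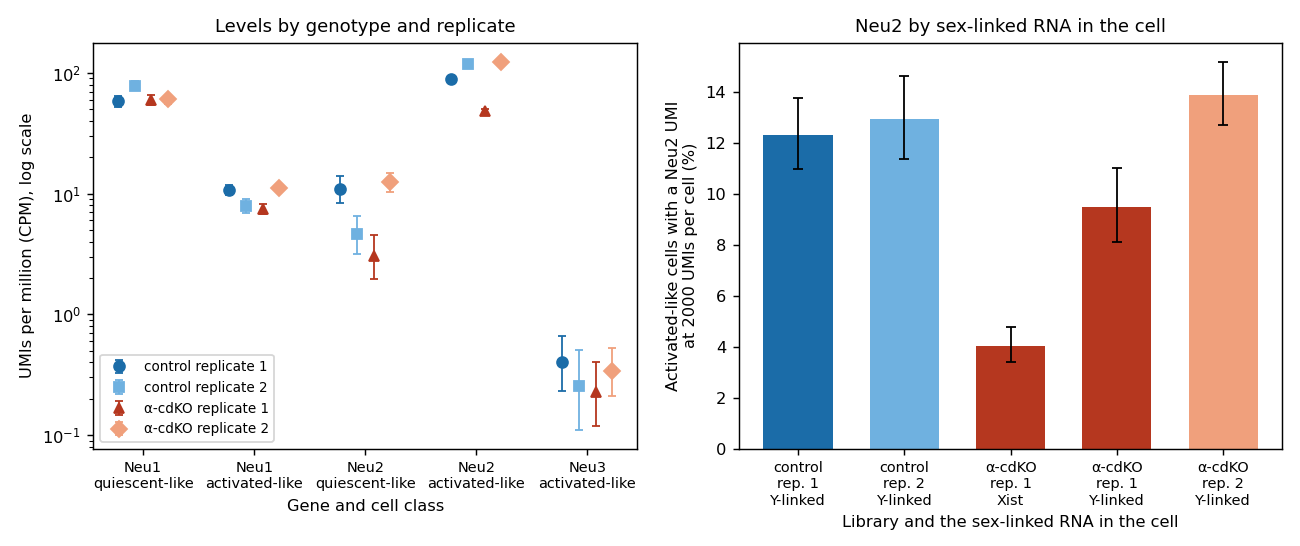
Left, levels of *Neu1*, *Neu2* and *Neu3* in CPM on a log axis, by cell class and library, with exact 95% counting intervals. Right, percentage of activated-like cells with a *Neu2* UMI at 2000 UMIs per cell, by library and by the sex-linked RNA in the cell, with exact 95% binomial intervals; the *Xist* cells of α-cdKO replicate 1 are at 4.04% and the Y-linked cells of the 4 libraries at 9.49% to 13.9%.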

How the data were processed

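Single cell RNA-sequencing of 2 control and 2 α-cdKO samples was analyzed. The authors deposited counts made with Cell Ranger, unnormalized whole numbers of UMIs of each gene in each barcode on GRCm38. Whether reads in introns were counted is not given in the sources used here. Cells with at least 1000 UMIs, 400 genes and under 15% mitochondrial UMIs were kept. Cells were normalized, reduced to 2000 variable genes and 30 components in Seurat 5.3.0, integrated by sample with an implementation of the Harmony method tested on simulated data, and clustered (Louvain, resolution 0.2). Clusters were named where at least 3 markers of a list were raised 1.5-fold. Marker genes and the sialidases also took part in the clustering, and the names thus depend on them in part. Scrublet's automatic threshold (scanpy 1.11.5) marked 0 to 4 cells per library and did not work, so doublets were kept, and removal of the 229 to 766 highest scores per library was an alternative.

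Levels are summed UMIs of a class scaled to a total of 1000000 (CPM). Genes with a mean of at least 5 CPM in the states were called at 2-fold in every library on log2(CPM + 5). Shares of cells were taken after thinning each cell to 2000 UMIs, with exact Clopper-Pearson 95% intervals, and the limit for a count of 0 is 3 counts of the total. Genotypes were compared on sums per sample by the quasi-likelihood test of edgeR 4.0.16 after filterByExpr and TMM (Benjamini-Hochberg over all genes tested, called at 0.05), tested on simulated counts, with DESeq2 1.42.0 as an alternative, and the interaction fit had the sample as a block. Other software was R 4.3.3, Python 3.11.15, scipy 1.17.1 and matplotlib 3.10.9.

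The genes named are the sialidases, the sialic acid, glycosphingolipid and lysosome genes that passed the rule or the 2 most abundant of a list, the 5 genes with the most similar pattern, the neighbors of each member, and the genes whose UMIs divided the cells. A few further list genes (*St3gal1*, *Slc35a1*, *Nagk*, *Gusb*, *B4galt6*) were named after their values were seen. The members, lists and tests were chosen with earlier results of these data known. Same-numbered samples did not deviate together from their genotype means (correlation −0.20 in myogenic, 0.08 in quiescent-like and −0.16 in activated-like cells), so replicate numbers were not used as pairs.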

Additional observations from a re-analysis of the deposited data

How the results depend on the processing

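With 2 pools per genotype and a shallow count of *Neu3*, small genotype differences could not be shown, and classes depend on clustering. The state differences of *Neu1* and *Neu2* kept their direction under every alternative run (10 each). The *Neu2* log2 ratio of activated-like to quiescent-like cells was 2.89 at resolution 0.4, and with each library left out it ran from 3.44 to 3.99 and for *Neu1* from −2.91 to −2.62. Co-detection in myogenic cells was 0.469 times expectation with the highest doublet scores removed. Leaving out each library gave 0.549 to 0.595 for myogenic, 0 to 0.487 for quiescent-like and 0.912 to 1.04 for activated-like cells. Causes were not tested.

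No alternative brought a genotype difference of a sialidase past the threshold except leaving out control replicate 1, where the *Neu2* interaction passed. Signs changed for small values. In quiescent-like cells *Neu2* was −0.12 with cells of at least 2000 UMIs, −0.012 with clustering without the sialic acid genes and −0.53 without integration, and *Neu1* was 0.090 in cells with Y-linked RNA but no *Xist*. In activated-like cells *Neu1* was −0.0048 without TMM and −0.019 in the Y-linked cells, where *Neu3* was 0.058. The interaction was −0.066 for *Neu1* in the Y-linked cells, 0.30 for *Neu2* without integration, and 0.018 without TMM and 0.31 at resolution 0.4 for *Neu3*. The *Neu2* share difference in quiescent-like cells was −0.782 with cells of at least 2000 UMIs, −0.461 with clustering without the sialic acid genes and −3.56 without integration.

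Leave-one-out ranges of the log2 fold changes for *Neu1*, *Neu2* and *Neu3* were −0.47 to −0.013, −1.22 to 0.27 and −0.34 to 0.017 in myogenic cells. They were −0.38 to 0.11 and −1.29 to 0.79 for *Neu1* and *Neu2* in quiescent-like cells. In activated-like cells they were −0.30 to 0.29, −1.10 to 0.25 and −0.52 to 0.17, and for the interaction −0.29 to 0.58, −1.25 to 0.42 and −0.74 to 0.65. Those of the *Neu2* share were −8.84 to 2.70, −5.82 to 6.44 and −4.92 to 0.0995 percentage points in myogenic, quiescent-like and activated-like cells.

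With the replicate block, *Neu2* was −0.021 in quiescent-like cells, *Neu1* was −0.0011 in activated-like cells, and 13, 57 and 20 genes were called in myogenic, quiescent-like and activated-like cells. The block changed no call for a sialidase. Pairing the numbers crosswise, chosen after seeing the data, called 151, 51 and 153 genes, with *Neu2* at −0.049 in quiescent-like cells. The interaction fit had the sample as its block already. Counts of genes called were 26, 10, 32 and 2 in myogenic, quiescent-like and activated-like cells and for the interaction. DESeq2 called 123, 27 and 113 in the classes. Resolution 0.4 and no integration gave 20 and 17 in quiescent-like cells, and cells of at least 2000 UMIs and no integration gave 58 and 59 in activated-like cells. For the interaction, genes with at least 10 UMIs gave 41, Y-linked cells gave 1, and 5 other settings gave 0 (547 to 614 at an unadjusted p under 0.05 by edgeR). Leaving out a library gave 1 to 49, 2 to 16, 32 to 141 and 15 to 182 calls.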
